A study of Homo sapiens with 8 samples.

Results

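The transcripts of 10 transcription factor genes of the ETS family were followed in 2 human lines of T-cell acute lymphoblastic leukaemia (T-ALL): ETS1, ETS2, FLI1, ERG, ETV6, ELF1, ELF2, ELF4, GABPA and ELK3. They were taken as a named list and matched by gene symbol, and all 10 had an entry among the 63677 entries of the count tables. The other 18 human ETS genes were kept as a separate list. RNA had been sequenced from DND-41 and MOLT-4, established T-ALL cell lines, after 3 h in 100 nM ACBI-1 or in its solvent DMSO, with 2 libraries in each of the 4 groups. ACBI-1 is a degrader that recruits the ligase VHL and so removes 3 proteins of the SWI/SNF chromatin remodeller, its motor subunits SMARCA2 and SMARCA4 and the accessory subunit PBRM1. The comparisons asked how the transcripts stood shortly after the addition of the degrader in each line, and how the lines differed from each other. No genotype or allele is given for either line, the cells of all 4 groups were grown in the same serum-containing medium, and each line is a single established culture, so a difference between the lines is a difference between these 2 cultures. Protein, the level at which the degrader acts, was not measured.

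ETS factors share a winged helix-turn-helix DNA-binding domain that recognises a short core, GGAA on one strand or TTCC on the other. In the T lineage ETS1, ELF1, FLI1 and GABPA occupy enhancers and promoters of T-cell genes, often beside RUNX factors. ERG and FLI1 act with TAL1, LMO2 and GATA factors in blood stem cells, GABPA is the DNA-binding subunit of GABP and works as a dimer with GABPB1 or GABPB2, ELK3 is a ternary complex factor that binds next to SRF, ETV6 is a repressor, and ELF4 restrains the proliferation of T cells.

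In the RefSeq gene order, ETS1 and FLI1 were adjacent protein-coding genes on chromosome 11, and ERG and ETS2 were adjacent on chromosome 21, which also carries GABPA. ETV6 and ELK3 lay on chromosome 12, ELF1 on chromosome 13, ELF2 on chromosome 4 and ELF4 on chromosome X. RefSeq promoter windows (GRCh38.p14, 250 bases before to 50 after an annotated start, 300 bases in all) were found for 8 of the 10 genes, with 18 windows in total. ETS1 and FLI1 had no window. The core GGAA, counted on both strands, was in 95.4% of the 35116 windows of all genes, with a median of 3 matches in a window. The longer form CCGGAA was in 17.2% of all windows and CCGGAAGT in 4.14%, again on both strands, and every match to a longer form contains the shorter ones. Among the 18 windows of the family, 1 held CCGGAA, and that window, of GABPA, also held CCGGAAGT. The windows shown are those of GABPA and ELF4 because these transcripts moved in opposite directions in both lines, and those of ETS2 and ERG because these neighbours differed most between the lines, and the cores GGAA and TTCC are in capitals. A match is a description of the letters, and no binding was measured.
GABPA, chr21:25734722-25735021, plus strand: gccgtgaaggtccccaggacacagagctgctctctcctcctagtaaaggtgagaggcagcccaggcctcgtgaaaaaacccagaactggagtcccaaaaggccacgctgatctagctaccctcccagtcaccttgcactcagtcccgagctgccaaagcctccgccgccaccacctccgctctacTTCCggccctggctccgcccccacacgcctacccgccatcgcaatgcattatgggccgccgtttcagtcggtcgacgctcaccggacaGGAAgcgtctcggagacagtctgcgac
ELF4, chrX:130110448-130110747, minus strand: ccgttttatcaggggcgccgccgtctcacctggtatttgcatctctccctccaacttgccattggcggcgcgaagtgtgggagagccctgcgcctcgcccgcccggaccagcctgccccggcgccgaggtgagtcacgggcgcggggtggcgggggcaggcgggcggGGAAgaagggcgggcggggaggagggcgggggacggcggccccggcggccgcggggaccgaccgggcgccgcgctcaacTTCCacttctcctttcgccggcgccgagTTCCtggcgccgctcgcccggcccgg
ETS2, chr21:38805679-38805978, plus strand: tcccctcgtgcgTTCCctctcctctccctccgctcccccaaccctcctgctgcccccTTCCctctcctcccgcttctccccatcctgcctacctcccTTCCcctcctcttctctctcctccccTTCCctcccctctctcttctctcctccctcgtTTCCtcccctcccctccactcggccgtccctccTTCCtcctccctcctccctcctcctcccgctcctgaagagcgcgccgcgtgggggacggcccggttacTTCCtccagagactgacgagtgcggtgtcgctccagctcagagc
ERG, chr21:38498428-38498727, minus strand: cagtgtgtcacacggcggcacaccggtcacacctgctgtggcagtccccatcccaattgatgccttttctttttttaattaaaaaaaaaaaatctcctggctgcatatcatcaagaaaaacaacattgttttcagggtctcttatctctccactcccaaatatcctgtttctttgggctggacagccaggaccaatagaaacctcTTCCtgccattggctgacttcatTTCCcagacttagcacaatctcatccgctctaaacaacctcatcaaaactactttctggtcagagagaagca
The GABPA window held 2 cores, the ELF4 window 3, the ETS2 window 7 and the ERG window 2. For ERG and ELF4 the window shown was the one with the most transcript starts of GENCODE release 29 inside it, 4 and 2. The ETS2 window shown held 1 such start, and the GABPA window held 0.

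Total counts lay between 19867779 and 20082524 per library, and mitochondrially encoded genes took 13.3% to 20.04% of them. The 2 DND-41 ACBI-1 libraries differed most from each other, at 17.4% and 13.3% mitochondrial counts and a mean chi-square of 17.2 per gene, against 3.19 to 5.58 in the other groups. T-cell markers had reads in all 8 libraries, with 24272 to 33204 counts for CD3E, a subunit of the T-cell receptor complex. Some were low in DND-41. TRAC, the receptor's alpha constant gene, had 16 to 18 counts there, and CD5 had 23 to 44, against 2042 to 3052 in MOLT-4. The 5 myeloid markers had at most 7 counts in any library, and LYZ had 0 in all. CD79A, a subunit of the B-cell receptor, had 31024 to 35375 counts in DND-41, and none of the 3 B-cell markers tested there was called for the treatment. Of the 9 T-cell markers, CD2, CD28 and CD3G rose with ACBI-1 in DND-41, by 0.42 to 0.45 on the log2 scale, and in MOLT-4 CD3G rose (0.39) while CD5 (-0.54), CD7 (-0.20) and TRAC (-0.69) fell. The part of these changes in the ETS results was not tested. One DND-41 DMSO library, replicate 2, carried low counts of genes of the other line. Over 62 genes that averaged at least 500 MOLT-4 counts and had no more than 2 in each DND-41 ACBI-1 library, its median level was 0.571% of that in MOLT-4, against 0 in replicate 1. The source of these counts was not tested.

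Untreated, ETS2 was the most abundant of these transcripts in DND-41 and ETS1 in MOLT-4. Levels of different genes were compared as reads scaled to a common library size (CPM) and divided by the length in kilobases of the longest annotated transcript. On this scale ETS2 stood at 102 and 107 CPM per kb in the DND-41 DMSO libraries, ELF1 at 43.5 and 44.2, ETS1 at 41.95 and 41.93, and FLI1 at 24.9 and 24.5. ELF4, ETV6, ELF2, GABPA and ELK3 followed in that order, from 14.0 down to 3.60 CPM per kb. ERG was last, at 0.0196 and 0.0986 CPM per kb. No neighbours in this order overlapped in the DND-41 DMSO libraries, although over the union of all exons ELF2 and GABPA changed places.

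In the MOLT-4 DMSO libraries the order on the same scale began with ETS1, at 52.9 and 53.6 CPM per kb. ELF1 followed at 34.8 and 32.3, ETS2 at 27.8 in both, and ERG at 24.4 and 21.2. FLI1 stood at 20.2 and 21.2 CPM per kb, and its libraries overlapped those of ERG, so these neighbours could not be ordered. ETV6, ELF4, GABPA, ELF2 and ELK3 came below, with ELK3 lowest at 1.63 and 2.16. ERG thus lay within the upper part of the family's levels in MOLT-4 and at the foot of it in DND-41.

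**Figure D1:**
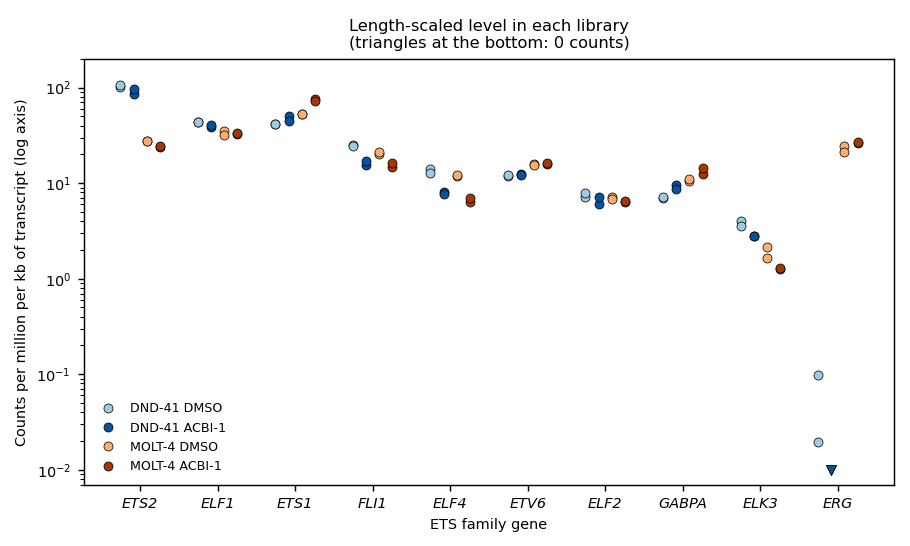
CPM per kb of the longest transcript (log axis) for the 10 ETS genes, ordered by their mean in DND-41 DMSO; each point is a library, colours give line and treatment, and triangles mark 0 counts. ERG spans from 0 in the DND-41 ACBI-1 libraries to 27.0 in MOLT-4, while ELK3 is the lowest gene in MOLT-4.

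After 3 h of ACBI-1, ELF4 and FLI1 were lower and GABPA was higher in both lines, and ETS1 was higher in MOLT-4. ELK3 also fell in both lines by the edgeR test, at low levels. In DND-41, 9 of the 10 genes passed the filter on low counts, of which 1 rose, 3 fell and 5 were not called at an adjusted p of 5%. Of all 14019 genes tested there, 9.83% were called, 3.78% as risen and 6.05% as fallen. In MOLT-4 all 10 were tested, 3 rose, 4 fell and 3 were not called, where 10.8% of the 14470 genes tested were called, 3.9% as risen and 6.94% as fallen. The median log2 fold change of the tested members was -0.16 in DND-41 and -0.08 in MOLT-4, against 0.00 over all genes tested in each line. ELF4, FLI1, GABPA and ELK3 were called in both lines, each in the same direction. In bulk RNA, fewer cells that express a gene and less RNA per cell cannot be told apart.

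**Figure D2:**
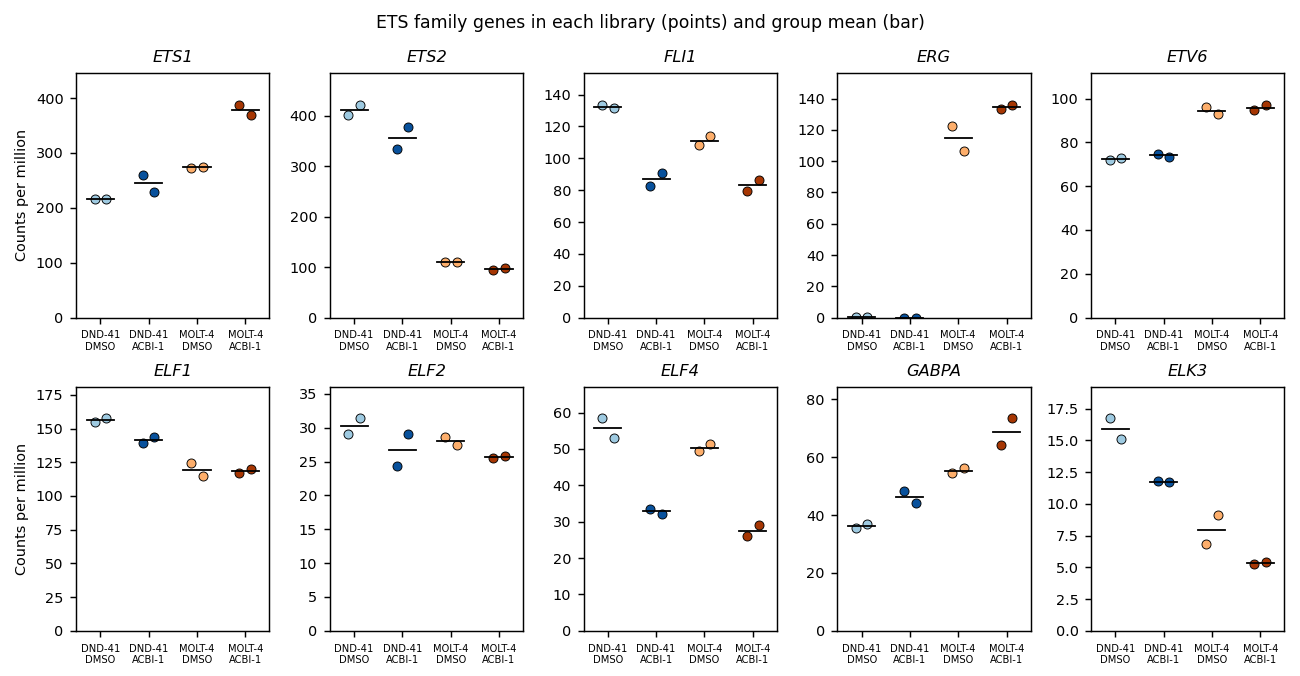
CPM of each of the 10 ETS genes in the 8 libraries (points, 2 per group) with the group mean (bar); each panel has its own axis, starting at 0. The ACBI-1 points of ELF4 and FLI1 lie below the DMSO points of the same line, those of GABPA above them, and ERG is near 0 in DND-41.

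Among the ELF genes, ELF4 showed the largest change of the family. In DND-41 its level was 33.5 and 32.1 CPM in the ACBI-1 libraries against 58.4 and 53.1 in DMSO. In MOLT-4 it was 26.2 and 28.96 CPM in ACBI-1 against 49.4 and 51.3 in DMSO. Every treated library lay below every DMSO library of either line. The fall was 1.68-fold in DND-41 (log2 fold change -0.75 ± 0.08 (SE), edgeR adjusted p = 3.53e-08) and 1.84-fold in MOLT-4 (-0.88 ± 0.08, edgeR adjusted p = 1.62e-08).

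ELF1, an activator abundant in lymphocytes, had 139.0 and 143.8 CPM in ACBI-1 and 155.1 and 157.5 in DMSO in DND-41. In MOLT-4 it had 116.8 and 120.3 CPM in ACBI-1 against 124.1 and 115.1 in DMSO. The groups were apart in DND-41 and overlapped in MOLT-4. Neither difference was called, with log2 fold changes of -0.13 (95% interval -0.26 to 0.00) and -0.02 (-0.15 to 0.11). ELF2, a close relative with several isoforms, had 24.3 to 31.4 CPM over all 8 libraries. Its log2 fold changes of -0.16 in DND-41 and -0.14 in MOLT-4 were not called, and the interval in each line reached from -0.35 or -0.31 to just above 0. The exons of ELF1 overlap those of WBP4 on the opposite strand over 3.85% of their length, and WBP4 was not called in either line.

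FLI1 was the other gene of the family with a clear fall. In DND-41 it had 82.7 and 91.0 CPM in the ACBI-1 libraries against 133.4 and 131.5 in DMSO. In MOLT-4 it had 79.6 and 86.6 CPM in ACBI-1 against 108.3 and 113.9 in DMSO. Treated and untreated libraries did not overlap, and the treated libraries of the lines overlapped each other. FLI1 fell 1.51-fold in DND-41 (-0.59 ± 0.07 on the log2 scale, edgeR adjusted p = 1.62e-07) and 1.35-fold in MOLT-4 (-0.43 ± 0.07, edgeR adjusted p = 5.08e-05). SENCR, a long non-coding RNA antisense to FLI1 that overlaps 1.98% of its exon bases, had 24 to 65 counts per library and was not called, and the strand setting of the counting is not given in the sources used here.

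ERG, the close paralogue of FLI1, was a MOLT-4 transcript. It had 2647 and 2649 reads in the MOLT-4 ACBI-1 libraries and 2381 and 2062 in DMSO, or 133.5 and 135.9 CPM against 122.6 and 106.5. Both treated libraries were above both DMSO libraries, and the DMSO libraries stood well apart from each other. ERG rose by 0.22 ± 0.07 on the log2 scale (edgeR adjusted p = 0.0303), but it was not called by DESeq2, at an adjusted p of 0.0869, or by edgeR's fit to all 8 libraries, at 0.0595. In DND-41 it had 0 reads in both ACBI-1 libraries and 2 and 10 in DMSO, the 10 being in replicate 2, so it did not pass the filter there. The fit of all 8 libraries did test ERG in DND-41 and called 6 members there, ERG among them as lower. That call rests on these few DMSO reads and was not taken as a response. Those 10 reads were 0.411% of the MOLT-4 level, not above the median of 0.571% over the 62 genes of the other line in that library. ERG and TAL1, at 0.531% there, both met the rule that picked the 62 genes, so they are not separate from that median. In replicate 1 the 2 ERG reads were 0.0821% of the MOLT-4 level, against a median of 0. The source of the ERG reads in DND-41 was not tested.

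ETS1, a factor needed for T-cell development and survival, rose in MOLT-4. It had 387.2 and 369.5 CPM in the MOLT-4 ACBI-1 libraries against 272.0 and 275.3 in DMSO. This 1.37-fold rise, 0.46 ± 0.06 on the log2 scale, had an edgeR adjusted p of 5.85e-06. In DND-41 it had 260.1 and 229.7 CPM in ACBI-1 against 215.6 and 215.5 in DMSO. Both treated libraries were above the DMSO pair, but they stood further apart than the DMSO libraries, and the log2 fold change of 0.20 (95% interval 0.06 to 0.34) was not called (edgeR adjusted p = 0.0689).

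ETS2, regulated by phosphorylation through the MAP kinases, was lower in the treated libraries of both lines by a small amount. In DND-41 it had 334.1 and 376.9 CPM in ACBI-1 against 401.5 and 420.8 in DMSO. In MOLT-4 it had 93.2 and 97.3 CPM against 109.4 and 109.5. The groups did not overlap in either line. The log2 fold change of -0.19 ± 0.07 in DND-41 was not called (edgeR adjusted p = 0.0923), while that of -0.21 ± 0.06 in MOLT-4 was (edgeR adjusted p = 0.0309). The MOLT-4 call was lost at an adjusted p of 0.133 in DESeq2, of 0.0838 when libraries were scaled by their totals, and of 0.0811 in edgeR's fit to all 8 libraries. The same 8-library fit called ETS2 in DND-41 instead (-0.21, adjusted p = 0.0431). Without DND-41 ACBI-1 replicate 2, in the fit of all 8 libraries, the DND-41 values of ETS1 and ETS2 were called, at 0.27 (adjusted p = 0.0101) and -0.30 (adjusted p = 0.00496). Without DND-41 ACBI-1 replicate 1 they shrank to 0.09 (adjusted p = 0.571) and -0.13 (adjusted p = 0.354).

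GABPA rose in both lines. In DND-41 it had 48.5 and 44.3 CPM in ACBI-1 against 35.5 and 36.8 in DMSO. In MOLT-4 it had 64.3 and 73.4 CPM in ACBI-1 against 54.5 and 56.3 in DMSO. The groups did not overlap in either line, and the MOLT-4 DMSO libraries were above the treated DND-41 libraries. GABPA was 1.30-fold higher in treated DND-41 cells (0.37 ± 0.08 on the log2 scale, edgeR adjusted p = 0.00159) and 1.24-fold higher in treated MOLT-4 cells (0.30 ± 0.07, edgeR adjusted p = 0.00605). GABPB1, its dimer partner, rose in MOLT-4 by 0.32 ± 0.07 (edgeR adjusted p = 0.00424) and was not called in DND-41, at 0.18 ± 0.08 (edgeR adjusted p = 0.16). GABPB2, the alternative partner, was called in neither line. The exons of GABPA overlap those of ATP5PF, a subunit of ATP synthase on the opposite strand, over 7.61% of their length, and ATP5PF, listed as ATP5J in the count tables, was not called in either line. GABPAP, a pseudogene of GABPA, had 1 to 5 reads per library.

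ELK3 had the lowest level of the members tested in each line. In DND-41 it had 240 to 243 reads in ACBI-1 and 305 to 340 in DMSO, which gave 11.8 and 11.7 CPM against 16.7 and 15.1. In MOLT-4 it had 5.29 and 5.44 CPM in ACBI-1 against 6.85 and 9.09 in DMSO. The groups did not overlap, and the MOLT-4 DMSO libraries differed widely. Its log2 fold change was -0.43 ± 0.11 for DND-41 (edgeR adjusted p = 0.0102) and -0.58 ± 0.16 in MOLT-4 (edgeR adjusted p = 0.0159), and DESeq2 called neither (adjusted p = 0.141 and 0.21).

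ETV6 had the smallest log2 fold change of the tested members in each line. It had 71.8 to 74.7 CPM over the 4 DND-41 libraries and 92.9 to 97.1 over the 4 MOLT-4 libraries. Treated and untreated libraries overlapped in MOLT-4, and in DND-41 both treated libraries, at 74.7 and 73.5, were just above the DMSO libraries. Its log2 fold change was 0.05 (95% interval -0.09 to 0.19) in DND-41 and 0.01 (-0.12 to 0.14) in MOLT-4, and neither was called.

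**Figure D3:**
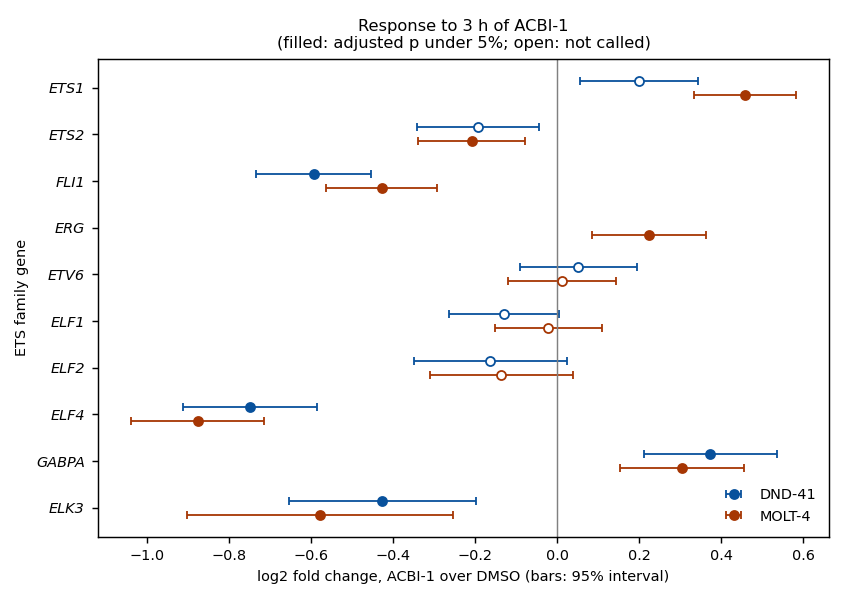
Log2 fold change of ACBI-1 over DMSO for each ETS gene tested in DND-41 (blue) and MOLT-4 (brown), with 95% intervals; filled points have an edgeR adjusted p under 5%. ELF4 lies furthest to the left in both lines, at -0.75 and -0.88, and the 9 genes tested in both lines have the same sign in each.

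With 2 libraries against 2, the calls depended on single libraries and on the filter. Leaving out either MOLT-4 ACBI-1 library from the MOLT-4 fit left 0 members called, and 0 genes of all tested, and leaving out DND-41 ACBI-1 replicate 1 from the DND-41 fit left 0 members. With no filter on low counts 0 members were called in DND-41 (ELF4 at an adjusted p of 0.0715) and 1, ELF4, in MOLT-4, and against a minimum fold of 1.5 only ELF4 in MOLT-4 passed. These losses were not particular to the family. Over all genes, 1378 calls in DND-41 and 1568 in MOLT-4 became 2 and 39 with no filter. Against the minimum fold they became 35 and 74.

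Because a line's own fit has little left to estimate the spread from once a library is removed, each library was also left out of a fit of all 8 libraries, in which the lone library is assumed to vary like the other groups. ELF4 and FLI1 were then called in both lines and ETS1 in MOLT-4 whichever library was left out. ELF4 stayed between -0.83 and -0.70 in DND-41 and between -0.95 and -0.82 in MOLT-4, and FLI1 between -0.68 and -0.54 and between -0.49 and -0.38. ETS1 in MOLT-4 ranged from 0.41 to 0.49. GABPA kept its sign but was not called in DND-41 at 0.29 without ACBI-1 replicate 1 and at 0.33 without DMSO replicate 1, with an adjusted p of 0.0593 and 0.0558. In MOLT-4 GABPA was not called at 0.21 without ACBI-1 replicate 2, at 0.28 without DMSO replicate 1 or at 0.32 without DMSO replicate 2, with adjusted p between 0.0527 and 0.238. ELK3 was called only without DMSO replicate 2 among the DND-41 libraries and only without DMSO replicate 1 among the MOLT-4 libraries, and its value ranged from -0.51 to -0.37 and from -0.77 to -0.37. ERG ranged from 0.12 to 0.33, lowest without MOLT-4 DMSO replicate 2 (adjusted p = 0.633), and was called without DMSO replicate 1 alone among the MOLT-4 libraries. ETS2 in MOLT-4 ranged from -0.24 to -0.19 and was not called whichever MOLT-4 library was left out, nor without either DND-41 DMSO library.

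**Figure D4:**
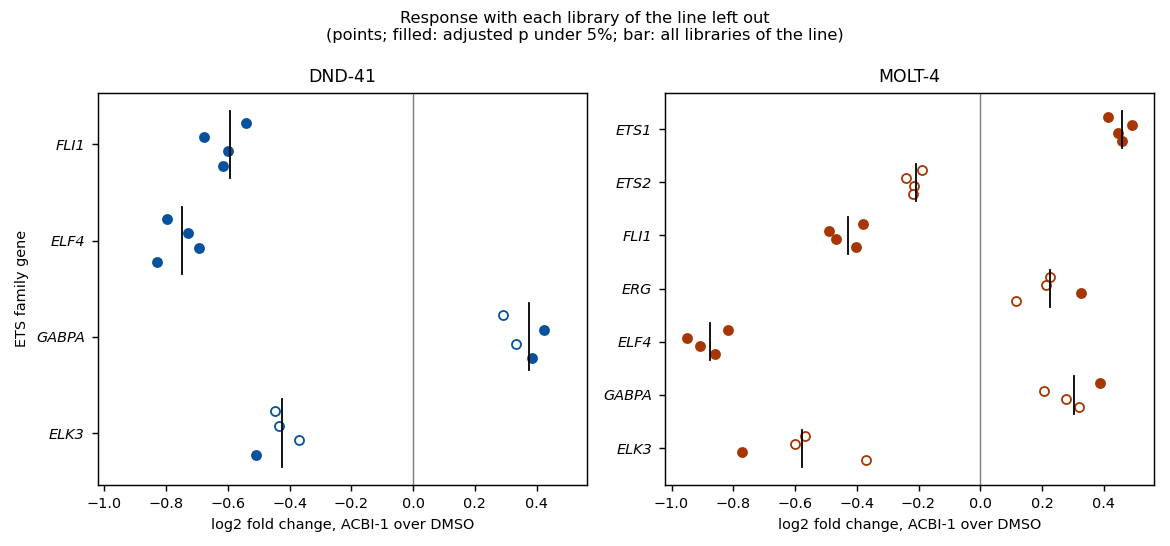
Log2 fold change of ACBI-1 over DMSO for the ETS genes called in each line, with each of that line's 4 libraries left out in turn of a fit of all 8 (points; filled where the edgeR adjusted p is under 5%), and the value from all libraries of the line (bar). All points of a gene lie on the same side of 0, and those of ELF4 and FLI1 are filled in both lines.

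The responses of the lines were compared by the interaction of line and treatment in a fit of all 8 libraries, as MOLT-4 minus DND-41. Of the 15604 genes tested 0.641% were called, and none of the 10 members was, although 2 of them, ETS1 and ERG, had an unadjusted p under 0.05 and DESeq2 also called 0. ETS1 had the largest difference of the members other than ERG, 0.28 ± 0.09 on the log2 scale (95% interval 0.09 to 0.48, edgeR adjusted p = 0.295). For FLI1 the difference was 0.19 (-0.01 to 0.39), and for ELF4 -0.10 (-0.34 to 0.13). GABPA gave -0.04 (-0.27 to 0.18) and ELK3 -0.13 (-0.52 to 0.27). With 2 libraries a group, any difference inside these intervals remains compatible with the data. ETS1 was called in this comparison without DND-41 ACBI-1 replicate 1, and its value over the left-out libraries lay between 0.19 and 0.38. The ERG difference (edgeR adjusted p = 0.0597) rests on the 12 DND-41 reads and is not given as a fold, and its adjusted p was 0.0072 without DND-41 DMSO replicate 1, 0.0331 without MOLT-4 DMSO replicate 1, and 0.798 without DND-41 DMSO replicate 2, the library that carried low counts of MOLT-4 genes.

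Among the 10 members, ERG, ETS2 and ELK3 differed most between the lines. In DMSO 4 of the 10 were higher in MOLT-4, 4 were lower and 2 were not called, and of all 15604 genes tested 64.4% were called, 32.8% as higher and 31.6% as lower in MOLT-4. ERG had 4443 reads over the MOLT-4 DMSO libraries against 12 over those of DND-41, a ratio per effective library of 386 (95% interval 221 to 748, counting error only). Against DND-41 replicate 1 alone, with 2 reads, the ratio was 1164 (322 to 9611), and against replicate 2 alone, the library with low counts of MOLT-4 genes, it was 231 (125 to 482). In ACBI-1, with 0 reads in DND-41, it was at least 907-fold higher in MOLT-4, set against a floor of 3 reads per library. ETS2, its neighbour on chromosome 21, was lower in MOLT-4 by 3.76-fold in DMSO, or -1.91 ± 0.07 on the log2 scale (edgeR adjusted p = 2.38e-19). ERG and ETS2 thus differed between the lines in opposite directions.

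Among the other members the line differences in DMSO were smaller. ELK3 was lower in MOLT-4, with a 95% interval of -1.26 to -0.74 for the log2 fold change, as were ELF1 (-0.39 ± 0.06) and FLI1 (-0.25 ± 0.07). GABPA was higher in MOLT-4 by 0.62 ± 0.08, ETV6 by 0.39 ± 0.06 and ETS1 by 0.34 ± 0.07. ELF4 (-0.15, 95% interval -0.30 to 0.01) and ELF2 (-0.11, -0.29 to 0.07) were not called, though ELF4 was called when libraries were scaled by their totals (-0.20, adjusted p = 0.025). The adjusted p of the 8 genes called was at most 0.00159, and all 8 were still called with any 1 of the 8 libraries left out. Against a minimum fold of 1.5, 3 members were called, in DMSO and in ACBI-1.

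In the ACBI-1 libraries 4 members were again higher and 4 lower in MOLT-4, where 64.8% of all genes were called, 33.9% as higher and 30.9% as lower. FLI1 was no longer called (-0.06, 95% interval -0.21 to 0.08), and ELF4 was, at -0.25 ± 0.08 (edgeR adjusted p = 0.01). The ELF4 call was lost without DND-41 ACBI-1 replicate 1 (-0.22, adjusted p = 0.0574) and without MOLT-4 ACBI-1 replicate 1 (-0.21, adjusted p = 0.085). ETS1 stood 0.63 ± 0.07 higher in MOLT-4 and ETS2 -1.90 ± 0.07 lower. A gene called in one treatment and not in the other is not thereby shown to differ between them, and the interaction called neither FLI1 nor ELF4.

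**Figure D5:**
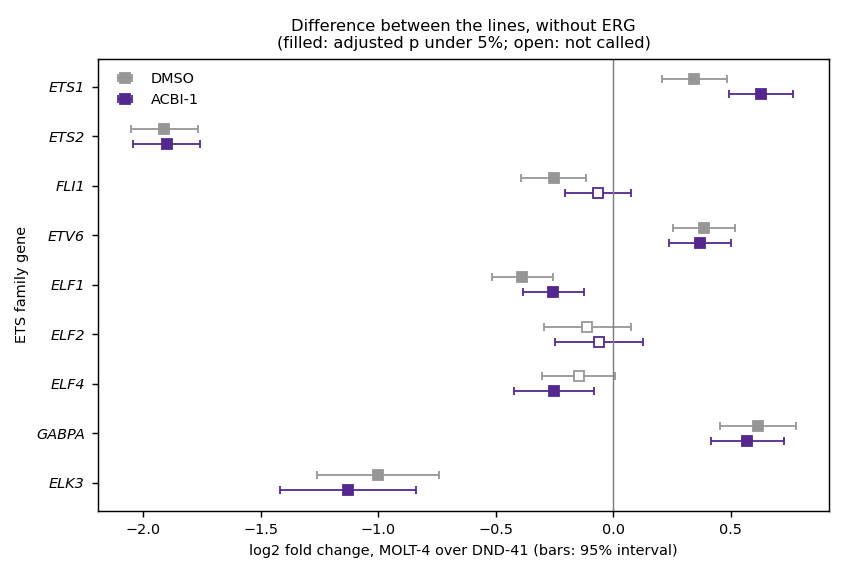
Log2 fold change of MOLT-4 over DND-41 for 9 ETS genes in DMSO (grey) and in ACBI-1 (purple), with 95% intervals and filled points for an edgeR adjusted p under 5%; ERG, at 0 reads in DND-41 ACBI-1, is left out. ETS2 lies near -1.9 and ELK3 next lowest in both treatments, at -1.13 in ACBI-1, and FLI1 is filled only in DMSO.

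Of the 18 other ETS genes, 7 were tested in DND-41 and 8 in MOLT-4, and none was called for the treatment in either line by edgeR, with 1 in each line, ELK4, at an unadjusted p under 0.05. ELK4, a second ternary complex factor, had a log2 fold change of 0.23 ± 0.08 in DND-41 (edgeR adjusted p = 0.0526) and -0.21 ± 0.09 in MOLT-4 (edgeR adjusted p = 0.16), and the interaction did not call it (adjusted p = 0.245). Between the lines in DMSO all 8 tested were called, 3 higher and 5 lower in MOLT-4, where 64.4% of all genes tested were called. ETV4, of the PEA3 group, was 18.1-fold lower in MOLT-4, with 22.9 and 22.1 CPM in DND-41 DMSO against 1.13 and 1.34, and ETV5 of the same group was 2.18-fold lower. ERF, a repressor, was 1.51-fold lower. EHF, ELF5, FEV, SPIC and ETV3L had 0 reads in all 8 libraries, and SPI1, the myeloid and B-cell factor PU.1, had at most 0.0516 CPM.

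Of 20 partners and regulators of ETS factors, 2 rose and 2 fell in DND-41, and 2 rose and 3 fell in MOLT-4. These 4 and 5 of 20 stand beside 9.83% and 10.8% of all genes called, and the list's medians of 0.05 and 0.03 beside 0.00. SRF, with which ELK factors bind, rose in DND-41 by 0.42 ± 0.07 (edgeR adjusted p = 4.61e-05). MYB, a haematopoietic factor, rose in both lines, by 0.22 ± 0.07 in DND-41 and 0.22 ± 0.06 in MOLT-4. CBFB, the common partner of RUNX proteins, fell in both, by 0.26 and 0.47 on the log2 scale. RUNX3 fell in DND-41 by 0.37, and RUNX2 and EP300, a histone acetyltransferase, fell in MOLT-4 by 0.55 and 0.28. The RUNX2 response differed between the lines (interaction -0.63 ± 0.13, edgeR adjusted p = 0.0182), and it was the 1 partner of the 20 for which this test was passed.

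Of 19 genes listed for reported ETS sites, of which RUNX3 is also a partner, 13 were tested in DND-41, where 5 fell and 0 rose, and 14 in MOLT-4, where 2 fell and 0 rose, with medians of -0.26 and -0.22. Of all genes tested 6.05% and 6.94% fell, with medians of 0.00, and 2 of 14 is about 1 gene above that share. Those in DND-41 were CDKN1A (an inhibitor of cyclin-dependent kinases), PRF1 (perforin), RUNX3, BCL2 (a survival factor) and HHEX (a homeobox gene), with log2 fold changes from -0.96 to -0.30. PRF1 had 6.13 and 6.55 CPM in ACBI-1 against 11.0 and 11.5 in DMSO, a fall of 0.81 ± 0.13 on the log2 scale (edgeR adjusted p = 7.15e-05). In MOLT-4 LMO2, a partner of TAL1, had 1.71 and 2.003 CPM in ACBI-1 against 5.92 and 4.49 in DMSO, or -1.49 ± 0.22 on the log2 scale (edgeR adjusted p = 1.95e-05). TRAC fell by 0.69 there. Whether any of these genes follows an ETS factor in these cells was not tested.

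Of 10 targets of ELK factors and SRF, SRF itself among them, 1 rose and 2 fell of 8 tested in DND-41, and 2 rose and 3 fell of 10 in MOLT-4, with medians of -0.01 and -0.29, where 9.83% and 10.8% of all genes were called. IER2, an immediate early gene, fell in both lines, by 0.60 ± 0.11 and 0.50 ± 0.09 on the log2 scale, as did MCL1, a survival factor, by 0.42 ± 0.07 and 0.50 ± 0.07. EGR1, a zinc finger immediate early gene, rose in MOLT-4 by 0.44 ± 0.09 (edgeR adjusted p = 0.00159), and JUNB fell there by 0.34 ± 0.09. Members of this list thus went both ways in each line. The degrader's targets and its ligase, SMARCA2, SMARCA4, PBRM1 and VHL, were called in neither line.

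The genes whose levels moved most like those of ELF4 and FLI1 were found by Pearson's correlation of log2 CPM, centred within each line, over the 8 libraries and 10247 genes, as a description with no test. For ELF4 these were OGG1 (r = 0.9965), a DNA glycosylase, SYVN1 (0.995), a ubiquitin ligase, and PER1 (0.995), a clock gene. For FLI1 they were CSNK2A2 (0.996), a catalytic subunit of casein kinase 2, VANGL1 (0.994) and KLC2 (0.993). With 2 treated and 2 untreated libraries in each line, any gene with a clear response of the same relative size scores high.

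In the authors' deposited table the adjusted p was 1.06e-09 for FLI1 and 3.46e-09 for ELF4 in DND-41, where GABPA was at 0.0223 and ELK3 at 0.152. In the authors' deposited table for MOLT-4 it was 4.36e-12 for ELF4, 4.4e-11 for ETS1, 3.61e-05 for FLI1 and 0.0313 for GABPA, and ERG (0.0869), ETS2 (0.133) and ELK3 (0.21) were above 5%. The sign of the authors' deposited table was ACBI-1 minus DMSO in DND-41 and DMSO minus ACBI-1 in MOLT-4, as read from its correlation with fold changes computed from the counts.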

How the data were processed

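Strand-specific paired-end RNA-seq of total RNA was analysed in 4 groups of 2 libraries, assigned from the titles. The authors deposited raw read counts per gene, 1 table per line. Per the file headers, their comparison tables hold log2 fold changes with standard errors, p-values and adjusted p-values; the mean normalized counts there (a signal) and the test statistic (a score) were deposited too and not used. Per the submitters' processing notes, which list names but no roles, STAR 2.5.2a, featureCounts, DESeq2 1.12.4 and hg19 were involved. Annotation and strand setting: not given in the sources used here. Reads shared with overlapping genes or near-identical copies therefore could not be separated.

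The test was that of edgeR 4.0.16 under R 4.3.3, with limma 3.58.1: TMM scaling, filterByExpr, the quasi-likelihood F-test, and Benjamini-Hochberg adjustment over all genes tested at 5%. The 4 libraries of a line made up its own fit, and all 8 entered the interaction and the line differences. Every adjusted p is from this test unless DESeq2 (1.42.0) or the authors' deposited table is named. The standard error is the fold change over the root of F, and intervals are 95%. CPM uses TMM library sizes of all 8 libraries. Lengths came from GENCODE release 29 by Ensembl identifier, and promoters from RefSeq (GRCh38.p14); no hg19 coordinates were used. A count of 0 allows up to 3 reads, counting error only. The scripts were tested on simulated data.

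Alternatives were DESeq2, its size factors, total-count scaling, no filter, a 1% threshold, a minimum fold of 1.5, the replicate block, all 8 libraries in one fit, each library left out, and, chosen after seeing the data, each library left out of the fit of all 8. Genes named were the 10 members, plus listed genes called or with the smallest p, and for likeness the closest genes to ELF4 and FLI1. The members and the lists were chosen with earlier results of these data known. Whether replicates were separate cultures is not in the labels, and the p-values reflect the spread among these libraries alone, possibly technical. With 2 libraries a side an exact permutation test cannot pass 0.05 and was not used. All sample columns of the count tables were matched to the labels.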

Additional observations from a re-analysis of the deposited data

How the results depend on the processing

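Of 800 values of single members recomputed under the alternatives, 701 kept their side of the threshold, 90 lost a call, 9 gained one and 0 calls reversed. The 701 include 23 that changed sign, all of them called in neither setting. ERG in DND-41, in the interaction and between the lines in ACBI-1 is not among the 800 values. With no filter on low counts, members called went from 4 to 0 in DND-41 and from 7 to 1 in MOLT-4, and all genes called to 2, 39 and, for the interaction, 13. A minimum fold of 1.5 gave 0 and 1 members, and 3 between the lines in DMSO and in ACBI-1, with 35, 74, 6, 4627 and 4666 genes. At 1% there were 4 members in MOLT-4, and 763, 879 and 50 genes in DND-41, MOLT-4 and the interaction. DESeq2 called 4 members in MOLT-4 and 617 and 696 genes in the lines. The cause of these shifts was not tested, beyond the stricter threshold itself. With the replicate number as a block, 2230 genes and 6 members were called in DND-41, ETS1 (0.20, adjusted p = 0.00573) and ETS2 (-0.20, adjusted p = 0.00945) being gained. With this block the difference between the lines refers to the replicate 1 libraries alone. ELF4 was called in that difference in DMSO (-0.24, adjusted p = 0.00741), with 49.4 CPM in MOLT-4 against 58.4 in DND-41. In replicate 2 it had 51.3 against 53.1 CPM, so the gained call does not describe both replicates. In the interaction 302 genes were called with the replicate number as a block, with 2 members (ETS1 and ERG). The numbers were not taken to pair samples, since the labels do not say that they mark a shared culture or day. Deviations of same-numbered libraries from their group means had correlations of 0.0985 (DND-41) and 0.0797 (MOLT-4), which cannot settle whether the samples were paired. Leaving out 1 library gave 0 to 4 members and 3 to 632 genes in DND-41, 0 to 6 members and 0 to 1430 genes in MOLT-4, and 0 to 1 members and 49 to 138 genes for the interaction. In the fit of all 8 libraries, leaving out 1 gave 2 members and 914 genes (DND-41 ACBI-1 replicate 1), 770 and 692 genes (DND-41 DMSO replicates 1 and 2), 4 members and 725 genes or 3 and 712 (MOLT-4 ACBI-1 replicates 1 and 2), and 942 genes or 774 with 3 members (MOLT-4 DMSO replicates 1 and 2). Scaling each gene by the union of its exons lowered 33 of 40 levels per kb by more than the spread between replicates. Depth limited ELK3, at 105 to 340 reads, and ERG in DND-41.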
